A study of Sus scrofa with 8 samples.

Results

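The microRNAs (miRNAs) miR-33, miR-103, miR-107, miR-148 and miR-185, which are known to act on cholesterol or lipid handling, were examined in the porcine corpus luteum. The members were taken by name: every array target whose miRNA number, after the species prefix was dropped, was that of miR-33, miR-103, miR-107, miR-148 or miR-185, with any letter or arm. This gave 11 of the 686 miRNA targets on the array, 7 with porcine (ssc) and 4 with human (hsa) names, covered by 29 probes. Total RNA of luteal tissue was compared between crossbred gilts on day 14 of the estrous cycle, which were not inseminated (cyclic, 4 arrays), and gilts on day 14 of pregnancy, inseminated 12 and 24 hours after the second estrus was detected (pregnant, 4 arrays). All animals were 6 to 8 months old and came from a single herd, and each sample was hybridised on its own 1-colour Agilent array as a biological replicate. RNA was taken from luteal tissue with all its cell types, so that fewer cells of a type and less miRNA per cell cannot be told apart.

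The corpus luteum makes progesterone from cholesterol, most of which luteal cells take from lipoproteins through the LDL receptor and the HDL receptor SR-BI, while the transporter ABCA1 carries cholesterol out of cells. In mammals, transcription of the uptake and synthesis genes is driven by the SREBP proteins. In humans miR-33a and miR-33b lie within introns of the SREBP genes SREBF2 and SREBF1 and repress ABCA1. From work in human and mouse cells, miR-148a is known to repress the LDL receptor and ABCA1, and in human liver cells miR-185 represses SR-BI. In mice, miR-103 and miR-107 act on insulin signalling and lipid storage. A match to RefSeq (Sscrofa11.1) placed the porcine gene MIR107 within PANK1 and the genes MIR103-1 and MIR103-2 within PANK3 and PANK2. These encode pantothenate kinases, which start the synthesis of coenzyme A. MIR185 lay within TANGO2 and MIR148B within COPZ1, while MIR148A lay within no protein-coding gene of that table.

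Signals are given as the spot intensity divided by the 75th percentile of the same array over targets detected on all arrays, on a log2 scale, so that a value of 0 lies at that percentile. The percentile itself was 189 to 316 intensity units, and 181 to 223 targets were detected per array. Levels of different probes are not comparable, since probes differ in binding. Cyclic replicate 1 stood apart from the other cyclic arrays in markers of other cells, and results whose call rests on it are given with and without it. The summed scaled signal of 4 tested leukocyte miRNA targets was 0.363 on it, 1.23 to 4.18 on the other cyclic arrays and 0.463 to 0.528 on the pregnant arrays. On the other cyclic arrays most of that sum was miR-223-3p, with log2 values of −0.33, −0.02 and 1.74. The leukocyte targets miR-342-3p and miR-150 differed by −0.10 and 0.01 between the groups, and miR-142-3p was detected on 0 arrays. For 5 tested fibroblast targets the corresponding sums were 3.57, 4.62 to 8.49 and 3.85 to 4.31, and for the gonad-enriched miR-202 (2 targets) 0.540, 0.210 to 0.239 and 0.343 to 0.626. Its 3p strand was detected on all 8 arrays and its 5p strand on 5. The erythroid sum, nearly all of it miR-451 since both miR-486 entries were detected on 0 arrays, was 7.22 on cyclic replicate 1, 1.31 to 4.82 on the other cyclic arrays and 1.29 to 6.19 on the pregnant arrays. The sums were 7.49, 6.29 to 7.26 and 7.10 to 8.73 for 2 endothelial targets, 1.25, 1.47 to 1.87 and 1.28 to 1.70 for 4 smooth muscle targets, and 0.137, 0.0882 to 0.121 and 0.0951 to 0.127 for the 1 of 8 epithelial targets that was tested. With all 8 arrays, none of these marker targets passed the test between the groups described below, and in each tested one the groups overlapped. Without cyclic replicate 1 the groups were fully apart in miR-223-3p, miR-142-5p, miR-199a-3p, miR-199a-5p, miR-199b-3p and miR-202-3p. Over all tested targets that share was 41.0%. In the same order, their log2 differences (pregnant minus cyclic, all arrays) were −2.29, −0.65, −0.53, −0.51, −0.34 and 0.74.

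Of the 11 members, 6 were well above background on all 8 arrays and 5 on none. The detected members were hsa-miR-33a-5p, ssc-miR-103, ssc-miR-107, ssc-miR-148a-3p, ssc-miR-148b-3p and ssc-miR-185. Those not well above background were hsa-miR-33b-5p, from the second human miR-33 gene, and strands opposite to detected members, namely hsa-miR-103a-2-5p, hsa-miR-185-3p, ssc-miR-148a-5p and ssc-miR-148b-5p. On the probe with the highest mean, hsa-miR-33b-5p reached at most 2.69 intensity units, and ssc-miR-148a-5p at most 0.282, beside array medians of 0.437 to 1.29 for the negative control spots. Both arms of the 2 porcine miR-148 genes were thus on the array, and in each gene the 3p arm was detected and the 5p arm was not. The human-named entries test human sequences, so the missing signals of hsa-miR-33b-5p, hsa-miR-185-3p and hsa-miR-103a-2-5p set no limit on porcine forms that differ in sequence.

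None of the 6 detected members passed the test between cyclic and pregnant glands (0 of 6, limma, Benjamini-Hochberg adjustment over 212 tested targets, threshold 0.05), where 11.3% of all tested targets passed. At an unadjusted p under 0.05 the count was 1 of 6, miR-107, against 34.4% of all tested targets. The differences, pregnant minus cyclic, ran from −0.11 to 0.29 on the log2 scale with a median of 0.15 (4 positive, 2 negative), beside a median of 0.00 and 50.5% positive over all 212. The spread within groups was like that of the array as a whole, with a median pooled SD of 0.20 over the members and 0.23 over all tested targets.

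**Figure D1:**
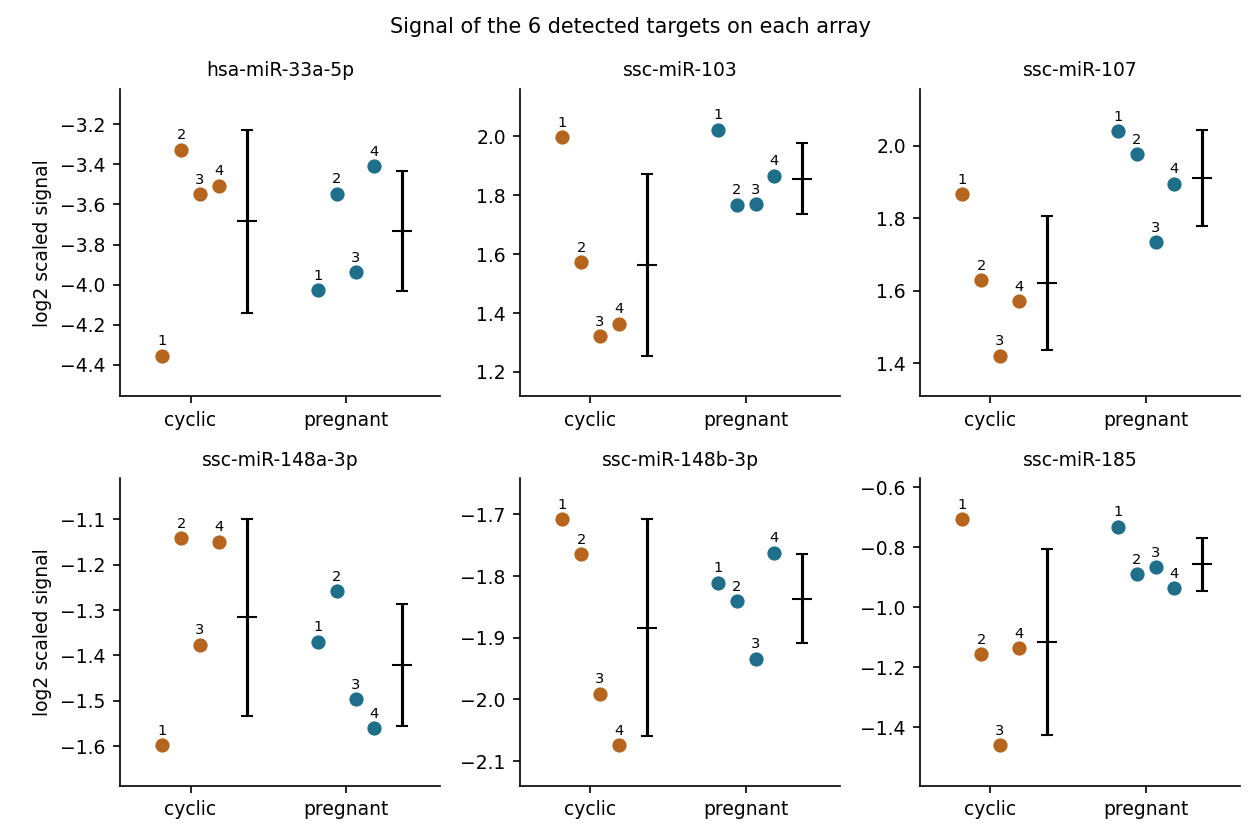
Scaled signal (log2, vertical axis, its own range in each panel) of the 6 detected targets on the 4 cyclic (brown) and 4 pregnant (blue) arrays, numbered by replicate, with the group mean ± SD (black, n = 4). For miR-103, miR-107 and miR-185, cyclic replicate 1 lies among or above the pregnant arrays and the other 3 cyclic arrays lie below all of them.

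The sterol-linked hsa-miR-33a-5p lay close to the detection limit, with 11.2 to 29.7 intensity units against array floors of 6.50 to 10.9 and 60.0% to 100.0% of its spots well above background. It read −4.36, −3.33, −3.55 and −3.51 on cyclic replicates 1 to 4 and −4.03, −3.55, −3.94 and −3.41 on pregnant replicates 1 to 4. The pregnant arrays lay inside the cyclic range, whose low end was cyclic replicate 1 alone, while the other 3 cyclic arrays read −3.55 to −3.33. The means of −3.68 ± 0.46 and −3.73 ± 0.30 (SD, n = 4) differed by −0.05 ± 0.24 (SE, adjusted p = 0.937), a fold of 0.968 with a 95% interval of 0.669 to 1.40. Its second probe was well above background on 0 arrays, so the value rests on a single probe.

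For ssc-miR-103 the cyclic arrays read 2.00, 1.57, 1.32 and 1.36 and the pregnant arrays 2.02, 1.77, 1.77 and 1.87. All pregnant arrays were above the cyclic mean, but cyclic replicate 1 was second only to pregnant replicate 1, so the groups overlapped. The group means were 1.56 ± 0.31 and 1.86 ± 0.12, a difference of 0.29 ± 0.15 (1.22-fold, 95% interval 0.968 to 1.55, adjusted p = 0.217).

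Its paralog ssc-miR-107 read 1.87, 1.63, 1.42 and 1.57 on the cyclic and 2.04, 1.98, 1.73 and 1.90 on the pregnant arrays. The same cyclic array was high, and it exceeded pregnant replicate 3 alone. The difference of 0.29 ± 0.13 was 1.22-fold (95% interval 1.01 to 1.48, without adjustment for the number of tests) and did not pass (adjusted p = 0.135). The mature forms of miR-103 and miR-107 are nearly identical in sequence, and their probes may bind both, so the pair cannot be counted as independent measurements. Each had a second probe that was detected on all 8 arrays, with differences of 0.30 for miR-103 and 0.31 for miR-107.

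The SR-BI repressor ssc-miR-185 gave −0.71, −1.16, −1.46 and −1.14 on the cyclic arrays. On the pregnant arrays it lay within a narrow band, at −0.73, −0.89, −0.87 and −0.94. Cyclic replicate 1 was the highest of all 8 arrays and the other 3 cyclic arrays were the lowest. The means of −1.11 ± 0.31 and −0.86 ± 0.09 differed by 0.26 ± 0.16 (1.20-fold, 95% interval 0.936 to 1.53, adjusted p = 0.290), and the second probe gave 0.21.

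The LDL receptor and ABCA1 repressor ssc-miR-148a-3p read −1.60, −1.14, −1.38 and −1.15 in the cycle and −1.37, −1.26, −1.50 and −1.56 in pregnancy. Here cyclic replicate 1 was the lowest array, next to pregnant replicate 4, and the groups overlapped. The difference was −0.11 ± 0.15 (0.930-fold, 95% interval 0.743 to 1.16, adjusted p = 0.704). For ssc-miR-148b-3p, which shares the miR-148a seed, the cyclic arrays read −1.71, −1.76, −1.99 and −2.07 and the pregnant arrays −1.81, −1.84, −1.93 and −1.76. The pregnant arrays fell inside the cyclic range, and the difference was 0.05 ± 0.14 (1.03-fold, 95% interval 0.836 to 1.28, adjusted p = 0.867). The second probes gave −0.16 for miR-148a-3p and 0.08 for miR-148b-3p, the latter detected on 6 arrays.

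The count of members that passed turned on cyclic replicate 1. Without it, 3 of 6 were higher in pregnancy, namely miR-103 (0.44 ± 0.11, adjusted p = 0.0125), miR-107 (0.37 ± 0.11, adjusted p = 0.0227) and miR-185 (0.39 ± 0.13, adjusted p = 0.0340), where 19.3% of all tested targets were higher and 38.2% passed in either direction. The groups were fully apart in the same 3 members without that array, against 41.0% of all tested targets, and in 0 of 6 with it, against 17.0%. The other 3 members stood at −0.27 (miR-33a), −0.20 (miR-148a-3p) and 0.11 (miR-148b-3p) without it, with adjusted p from 0.306 to 0.620. Leaving out any other single array gave 0 members that passed. The probes of miR-103 and miR-107 may bind both miRNAs, so these members are not independent in the counts above. In all 7 marker sums given above cyclic replicate 1 lay outside the range of the other cyclic arrays. The highest and the lowest of 4 arrays always lie outside the range of the other 3, so this position alone does not set an array apart. Some margins were small, as for the endothelial sum (7.49 against at most 7.26). Of the single targets summed, miR-126-5p (−1.44), miR-145-5p (−2.96) and miR-202-5p (−4.06) lay inside their range on the other cyclic arrays. The remaining single targets lay outside theirs. The part of these markers in the results was not tested.

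Slide and scan day were partly tied to the groups. Slide 1 held pregnant replicates 1 and 2 and was scanned on a day of its own. Slide 2 held cyclic replicates 1 and 2, and the remaining arrays of each group shared slide 3. A comparison within slide 3 therefore also leaves out cyclic replicate 1. Within slide 3, with 2 arrays per group, the differences were 0.47 for miR-103, 0.32 for miR-107, 0.40 for miR-185, −0.27 for miR-148a-3p, 0.18 for miR-148b-3p and −0.15 for miR-33a, with adjusted p from 0.0957 to 0.756. Within the scan day of slides 2 and 3 they were 0.25, 0.19, 0.21, −0.21, 0.04 and 0.01 in the same order, with adjusted p from 0.520 to 0.984. None of the 6 passed in either (0 of 6, limma), where 4.25% of all tested targets passed within slide 3 and 0.943% within the scan day. At an unadjusted p under 0.05 the member counts were 1 and 0, against 30.2% and 17.5% of all tested targets.

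The scaling also changed the count. With each array scaled to its 75th percentile over all probes, most of which were dark, 2 of 6 members were higher in pregnancy, miR-103 (0.59, adjusted p = 0.0394) and miR-107 (0.59, adjusted p = 0.0187), where 25.9% of all tested targets were higher and 29.2% passed in either direction. As said above, miR-103 and miR-107 cannot be counted as independent measurements. That scaling raised the median difference of all 212 by 0.30. Relative to this shift, a setting added after seeing the data, 0 of 6 passed (limma, 0 also at an unadjusted p under 0.05), against 12.3% of all tested targets.

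**Figure D2:**
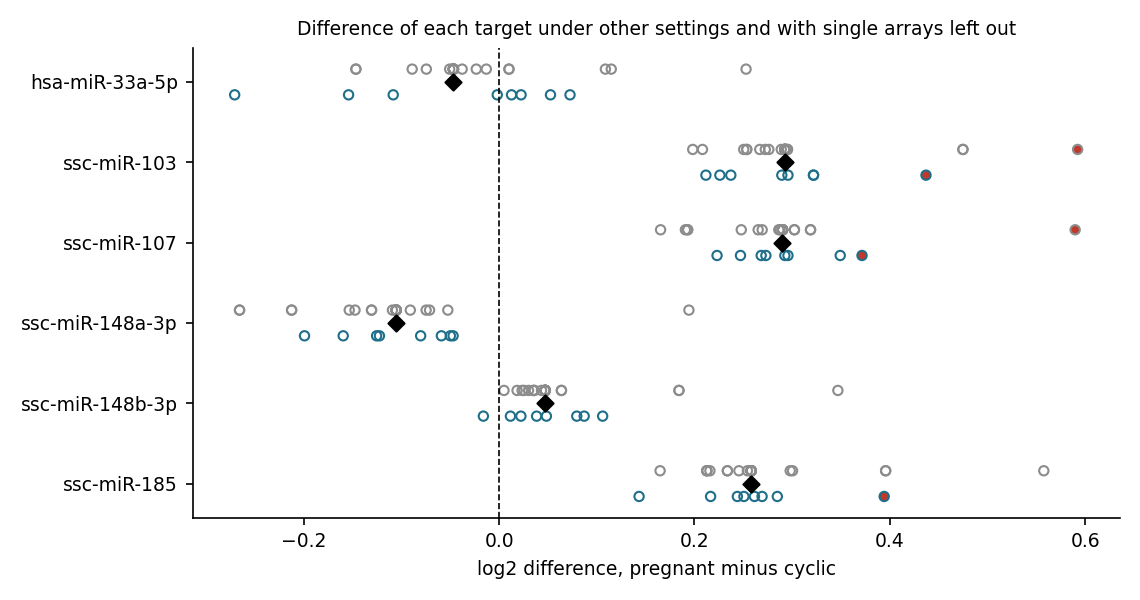
Log2 difference, pregnant minus cyclic (horizontal axis), of each detected target: as reported (black diamonds), under other settings (grey circles) and with 1 array left out (blue circles); red filling marks an adjusted p under 0.05. miR-103, miR-107 and miR-185 stay above 0 throughout, and their filled points come from the fit without cyclic replicate 1 and, for miR-103 and miR-107, from scaling over all probes.

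Related members were also compared within arrays, where the scaling cancels. The log2 ratio of miR-103 to miR-107 was 0.13, −0.06, −0.10 and −0.21 on cyclic replicates 1 to 4 and −0.02, −0.21, 0.03 and −0.03 on pregnant replicates 1 to 4. The groups overlapped, and their means of −0.06 ± 0.14 and −0.06 ± 0.11 (SD, n = 4) differed by 0.00 (exact permutation test, 2-sided, p = 1.00 over 70 regroupings, adjusted p = 1.00 over 2 pairs). For miR-148a-3p over miR-148b-3p the ratio was 0.11, 0.62, 0.61 and 0.92 on the cyclic and 0.44, 0.58, 0.44 and 0.20 on the pregnant arrays. The cyclic arrays covered a wider range that took in the pregnant ones, and the difference was −0.15 (exact permutation p = 0.400, adjusted p = 0.80; the smallest p possible was 0.0286, so that 1 pair alone could not go below an adjusted p of 0.0571). Without cyclic replicate 1 it was −0.31, with an exact permutation p of 0.0571, the smallest that 4 against 3 arrays allow. Within slide 3, which also lacks that array, the differences were 0.16 for the first pair and −0.45 for the second. The smallest exact permutation p there is 0.333.

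**Figure D3:**
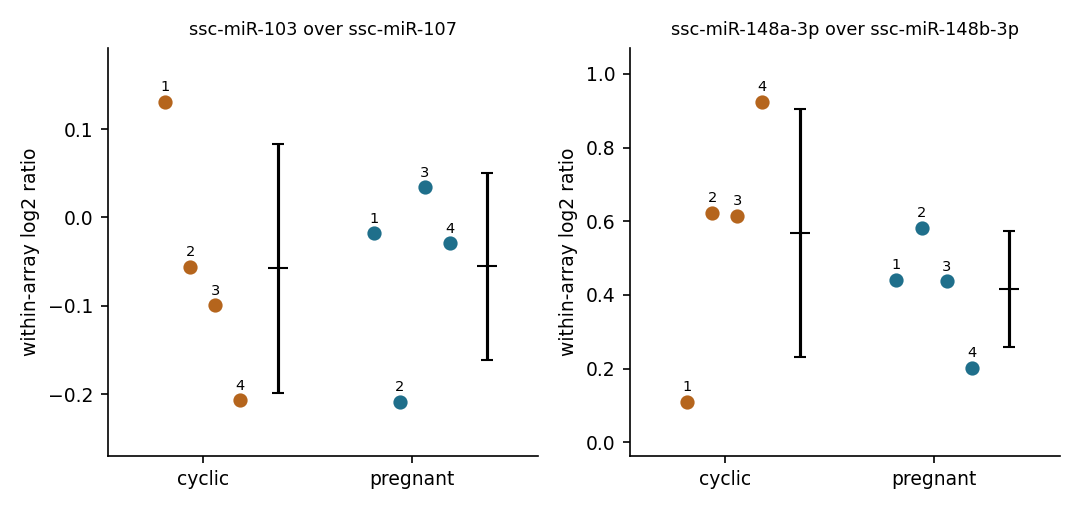
Within-array log2 ratio (vertical axis) of miR-103 over miR-107 and of miR-148a-3p over miR-148b-3p on the cyclic (brown) and pregnant (blue) arrays, numbered by replicate, with the group mean ± SD (black, n = 4). The first ratio stays between −0.21 and 0.13 and the second between 0.11 and 0.92, and in both the groups overlap.

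The members fell into different profiles over the 8 arrays. Likeness was measured as the root mean square distance between log2 profiles, each centred on its own mean, and is given as a description of 8 arrays that share scaling and slides. miR-103 lay 0.0911 from miR-185, the third closest of 211 other targets, and 0.108 from miR-107, against a median distance of 0.353 over all of them. By contrast, miR-148b-3p was 0.240 from miR-148a-3p, which carries the same seed and ranked 80 among the 211 neighbours of miR-148b-3p. The distance from miR-103 to miR-33a was 0.532.

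Among targets outside the group, the closest to miR-103 were miR-151-5p (0.0821), let-7a (0.0835) and miR-30d (0.111). The profile of miR-107 was nearest to those of miR-30d (0.0649), miR-151-5p (0.105) and miR-331-3p (0.106), and that of miR-185 to let-7a (0.0697), miR-151-5p (0.0783) and miR-425-5p (0.0934). For miR-148b-3p the nearest were miR-30c-5p (0.0559), its seed relative miR-152 (0.0686) and miR-10b (0.0853), whereas miR-148a-3p was nearest to miR-181c (0.0923), miR-106b-5p (0.114) and miR-29c (0.116). For miR-33a, the nearest were mmu-miR-101c (0.186), miR-140-3p (0.203) and miR-574 (0.205), against a median of 0.416. All of the neighbours named here had adjusted p of 0.119 or more between the groups.

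Further miRNAs, known to act on cholesterol genes, were set beside the members. A list of 23 such miRNAs, drawn up from their known targets, matched 45 further array targets, of which 23 were tested: 0 were higher in pregnancy, 1 was lower and 22 did not pass, beside 5.19% higher and 6.13% lower among all tested targets. The median difference was −0.02. Without cyclic replicate 1, 7 of 23 passed (30.4%), 1 of them higher and 6 lower, beside 38.2% of all tested targets. Among repressors of both the LDL receptor and ABCA1 (4 tested), miR-27a stood at −0.49 ± 0.21 (adjusted p = 0.135) and miR-27b-3p at 0.05 ± 0.16. Without cyclic replicate 1 miR-27a was lower, at −0.69 (limma adjusted p = 0.0073), and miR-27b-3p stood at −0.02. Of 8 tested ABCA1 repressors, miR-26a differed by 0.04 ± 0.11 and miR-19b by −0.30 ± 0.15 (adjusted p = 0.168), which without cyclic replicate 1 was lower, at −0.40 (limma adjusted p = 0.0312). In the SREBP feedback locus of miR-96, miR-182 and miR-183, miR-182 stood at −0.14 ± 0.24 and miR-96-5p at −1.0 ± 0.32 (adjusted p = 0.0698, with 3 pregnant arrays at the floor), while miR-183 was not detected. Without cyclic replicate 1, miR-96-5p was lower (−0.89, limma adjusted p = 0.0488) and miR-182 stood at 0.08. Without pregnant replicate 1, miR-96-5p stood at −1.33 (limma adjusted p = 0.0147). All pregnant arrays left in that fit were at the floor, so the floor set their mean and spread.

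The single target that passed on this list was hsa-miR-125a-3p, at −1.16 (SE 0.335, adjusted p = 0.0462), and it passed in 8 of 24 other settings and in 1 of 8 fits with an array left out, that without cyclic replicate 1. Its difference was −0.36 with normexp background correction (limma adjusted p = 0.289), −1.91 when slide was fitted as a block (adjusted p = 0.0091), and −0.79 without cyclic replicate 3 (adjusted p = 0.0839). It entered the group of SR-BI repressors (7 tested) by its name, whereas the strand known to repress SR-BI is the 5p strand, and hsa-miR-125a-5p stood at 0.39 ± 0.15 (adjusted p = 0.110) and, without cyclic replicate 1, was higher at 0.50 (adjusted p = 0.0133). In the same group miR-24-3p differed by 0.02 ± 0.13. Also in this group, and on the leukocyte list too, hsa-miR-223-3p stood at −2.29 (SE 0.758, limma adjusted p = 0.0767). That was the lowest difference of all 212 tested targets. For miR-223-3p the groups overlapped with all arrays and were fully apart without cyclic replicate 1. miR-30c-5p, which represses the lipoprotein assembly protein MTTP, differed by 0.13 ± 0.13, and miR-152 by 0.09 ± 0.13. The liver miRNA miR-122 was detected on 0 arrays with either of its entries.

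**Figure D4:**
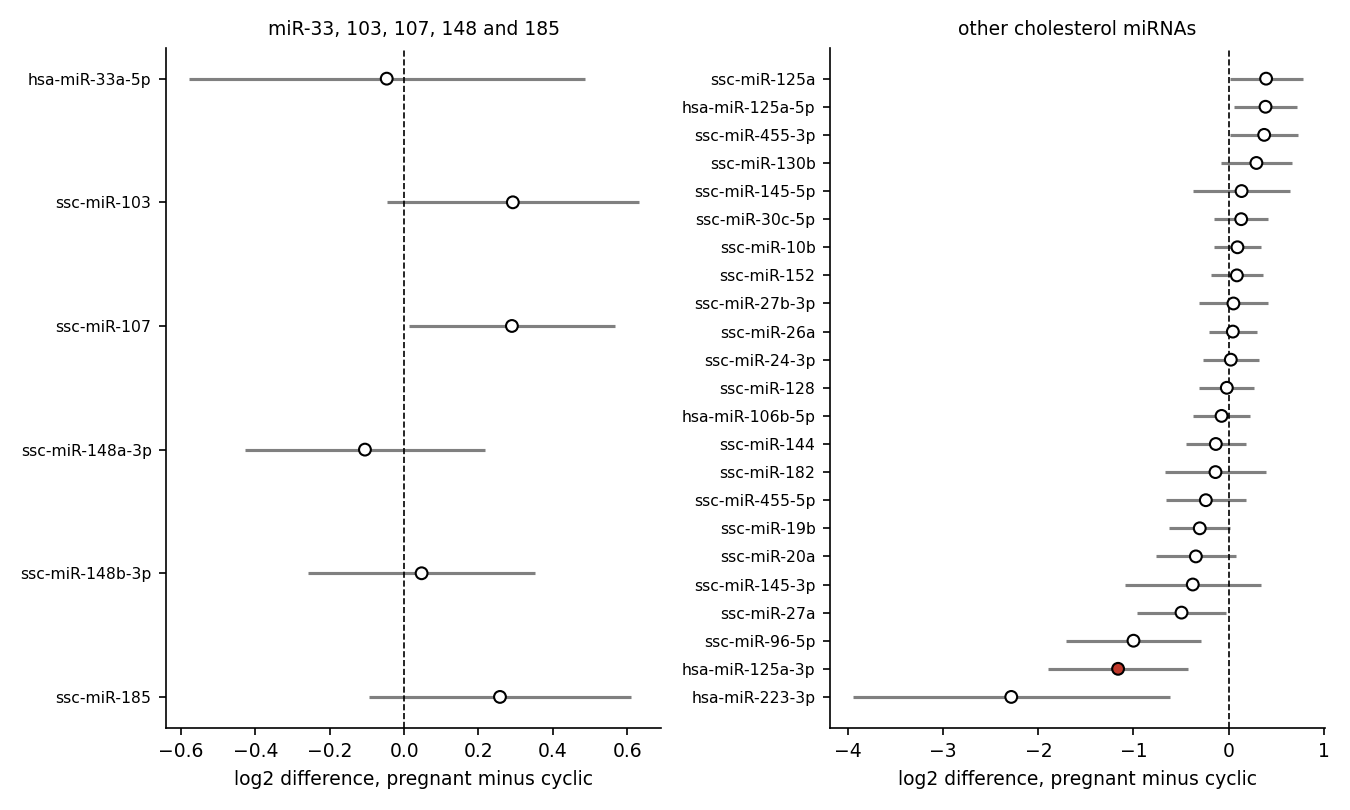
Log2 difference, pregnant minus cyclic (horizontal axis), with the 95% interval of the limma fit (grey lines, not adjusted for the number of tests) for the 6 detected members (left) and 23 other cholesterol miRNAs (right, its own axis range). A red point marks an adjusted p under 0.05, which hsa-miR-125a-3p alone reached.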

How the data were processed

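Agilent Feature Extraction (10.7.3.1 per the file headers, 10.7 per the submitters' processing notes) gave the deposited intensity values per spot, background-subtracted, on a linear scale. Per the labels, Cy3 labelling used 100 ng of RNA, and the integrity number exceeded 8. The authors' deposited table holds log2 values centred per spot over the arrays, in which 3 cells above 100 were read as missing; the 2 columns concerned were taken as a score that the authors deposited. Its column medians were 0.0108, −0.000283, 0.000689 and −0.000205 (cyclic 1 to 4) and −0.000302, 9.5e-05, −9.5e-05 and 0.0318 (pregnant 1 to 4), its slopes against differences of scanner log2 values were 0.924 to 0.9975, and its scaling between arrays is unknown. It served as an alternative.

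Control and outlier spots were left out, the spots of a probe averaged, each array divided by its 75th percentile over the 166 targets detected on all arrays, values floored at 0.0344 (log2 −4.86) and log2 taken. A probe counted as detected with a share of 0.5 or more of its spots well above background, a target if any of its probes did. The probe with the highest mean stood for a target. The 212 targets detected on at least 4 arrays were tested with limma 3.58.1 (trend, 2-sided) in R 4.3.3, after a check on simulated data. Pairs were tested by exact permutation (SciPy 1.17.1). Figures used matplotlib 3.10.9. Groups and replicate numbers came from the labels. The number of arrays limits precision.

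The members and lists were chosen with earlier results of these data known. Named by rule were all members, list targets that passed and the 2 brightest of each role, and the 3 nearest profiles per member. miR-183, miR-122 and miR-223 were named after their values were seen.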

Additional observations from a re-analysis of the deposited data

Results flagged for a closer look

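Taken over the detected members and the 11 list targets named by rule, there were 34 groups of 4 arrays. In 2 groups, 1 array lay far from the other 3 (Dixon's test). Chance alone flags about 1 in 20 groups of measured values. Neither was a group of miR-33, miR-103, miR-107, miR-148 or miR-185. For miR-182, of the SREBP feedback locus, cyclic replicate 1 read −2.27, above the other cyclic arrays at −3.19 to −3.14. For miR-96-5p of the same locus, pregnant replicate 1 read −3.54 while the other pregnant arrays were at the floor of −4.86, which sets the ratio of gap to range at its highest value, so the chance rate does not apply to this group.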

How the results depend on the processing

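The count of members that passed was 0 as reported and in 24 of 25 other settings (limma; 0 to 2 at an unadjusted p under 0.05). It was 2 with each array scaled over all probes, and 0 to 3 with single arrays left out. The differences of miR-103 (0.20 to 0.59), miR-107 (0.17 to 0.59) and miR-185 (0.16 to 0.56, and 0.14 at the lowest with an array left out) were positive in all of these. That of miR-33a reversed to 0.25 with scaling over all probes, 0.11 with quantile normalization, 0.1148 with the authors' table and 0.0101 with scan day as a block or on 1 scan day, and ran from −0.27 to 0.0726 without single arrays. miR-148a-3p reversed to 0.19 with scaling over all probes, and miR-148b-3p ran from −0.0161 to 0.11 without single arrays.

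Over all tested targets the count of 24 became 62 with scaling over all probes, 11 with normexp or a floor at the 5th percentile, 10 with the total gene signal, 9 without scaling or on slide 3 alone, 2 with scan day as a block or on 1 scan day, and 0 without a filter on dim targets (limma; 71 at an unadjusted p under 0.05). Without single arrays it was 7 to 81, the highest without cyclic replicate 1.

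For the other cholesterol miRNAs the count of 1 became 5 with scaling over all probes, 2 relative to its shift, 3 with slide as a fixed block and 2 on slide 3 alone. It was 0 (limma; 3 to 8 at an unadjusted p under 0.05) with quantile normalization, the authors' table, the total gene signal, either other floor, either mean over probes, detection on 2 arrays, no filter, porcine targets alone, slide as a random block, scan day as a block or alone, and robust variances. Without single arrays it was 0 to 7. Porcine targets alone leave out the human-named hsa-miR-125a-3p, so that setting could not return this target. Small differences reversed for miR-24-3p (−0.0188 without scaling, −0.0375 with the authors' table, −0.0104 with the total gene signal, −0.0887 with slide as a block or slide 3 alone, −0.0191 with scan day as a block or alone, and −0.0516 to 0.13 without single arrays), miR-182 (0.16 with scaling over all probes, −0.28 to 0.0848 without single arrays), miR-26a (−0.12 with the authors' table, −0.0394 to 0.0867 without single arrays) and miR-27b-3p (−0.0852 to 0.17 without single arrays). The causes were not tested. The pair ratios give no evidence on stability, since with 4 arrays per group 1 pair alone cannot pass after adjustment over 2 pairs (exact permutation test).

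Same-numbered arrays of the groups did not deviate together, with correlations of 0.1042, 0.0976, −0.1775 and 0.1603 over the tested targets, so the number was not taken as a pairing. With a replicate block 0 members (2 at an unadjusted p under 0.05, limma), 26 targets in all and 2 other cholesterol miRNAs passed.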
